A study of Mus musculus with 21 samples.

Results

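The comparison was made between the control lungs of 2 inbred mouse strains, C57BL/6 and A/J, which were 4 of the 21 arrays of a study of bleomycin injury. The arrays were taken by their titles. Each strain had a male array and a female array, and each array held total RNA of the whole right lung pooled from 3 to 5 mice, extracted with Trizol. The labels give neither the age of the mice, the substrain of C57BL/6, nor what the control mice received in place of bleomycin. Other arrays were used beside them: the male and female control arrays of C3H/HeJ, a further inbred strain, and the arrays taken 3 weeks after bleomycin, a DNA-cleaving cancer drug known to scar the lung, given by osmotic minipump. The 3 week arrays were 2 of C57BL/6 (male at 100 mg/kg, female at 125 mg/kg) and 4 of A/J (male at 80 and 100 mg/kg, female at 100 and 125 mg/kg). The model behind each standard error and p-value also took in the rest of the 21 arrays: C57BL/6 and A/J at 6 weeks (1 female and 2 arrays), C57BL/6 mice titled as sick after bleomycin (2), and C3H/HeJ at 3 weeks and at 6 weeks (2 each), with male pools at 100 mg/kg and female pools at 125 mg/kg where bleomycin was given. An array is a pool, so p-values measure the spread between pools, pooled over all 10 groups, injured lungs included, and each control mean rests on 2 arrays.

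C57BL/6 mice are the strain usually taken as prone to lung scarring after bleomycin, and A/J mice are usually taken as less prone. Inbred strains are homozygous at nearly all loci, so a promoter change, a deletion, a gene copy gain or a retroviral insertion that became fixed in a strain can set a gene's transcript level in every mouse of that strain. The arrays read each gene through short DNA probes grouped into probe sets, and many genes have several probe sets that bind different stretches of the transcript. A base that differs between strains under a probe weakens binding with no change in the amount of transcript. For this reason, the probe sets of the same gene were compared with each other throughout. The sequences of the probes were not used here, and whether strain variants lie under any probe was not tested.

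Signals are given after quantile normalization, which gives every array the same distribution, with a median of 86.9 and a 90th percentile of 553 in arbitrary units. Differences are C57BL/6 minus A/J on the scale log2(signal + 16), positive where C57BL/6 was higher; the added 16 understates the change of dim genes. A gene was read through its brightest probe set and called at an adjusted p under 0.05 (limma). Lung transcripts were bright on all 4 arrays: Sftpb, a surfactant protein of type 2 alveolar cells, had signals from 4305 to 5079, Ager of type 1 cells from 3048 to 3953, and Cdh5 of endothelium from 1056 to 1247. Xist, the RNA of the inactive X, was at 1727 and 2626 on the female arrays and at 131 and 105 on the male arrays, and Eif2s3y of the Y chromosome was at 112 and 129 on the male arrays and at 0.2 and 0.4 on the female ones, as the sex labels have it. The deposited medians were 109.4 and 111.3 for C57BL/6 and 89.8 and 82.8 for A/J, and the 3′ control probe set of Gapdh divided by the 5′ one, which rises as RNA degrades, gave 0.853 and 0.928 for C57BL/6 against 1.343 and 1.088 for A/J. Both measures moved with strain, and their part in the differences below was not tested beyond the fits given with each result. Log2 signals correlated at 0.973 between the C57BL/6 arrays, at 0.978 between the A/J arrays and at 0.947 to 0.954 between strains, a description over 9079 genes.

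Of 9079 genes, 254 were called between the control lungs (2.8%): 131 were higher in C57BL/6 (1.44%) and 123 higher in A/J (1.35%). Among them, 111 differed by more than 2-fold, 64 with the higher level in C57BL/6 and 47 in A/J. The arrays of the strains did not overlap for any of the 254 called genes, nor for 4899 of all 9079 genes (54%), so non-overlap was common with 2 arrays per strain. The median difference over all genes was -0.07, the median standard error 0.20, and 1464 genes had an unadjusted p under 0.05. The direction of the calls depended on the scaling: C57BL/6 was higher in 51.6% of calls after quantile normalization, in 84.1% of 132 calls on the values as deposited, where the median of all genes was 0.19, and in 37.9% of 219 calls after bringing all arrays to 1 median. Removing 1 control array at a time left between 65 calls (without the A/J male array) and 92 (without the A/J female array), and 33 genes were called in each of these 4 fits. With the Gapdh ratio as a covariate, 106 genes were called. With the 4 control arrays alone, where the spread comes from control lung only, 727 were called. That fit leaves too few residual degrees of freedom for a spread per gene, so its spread is drawn largely from all genes together. The larger count is therefore not stronger evidence.

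**Figure D1:**
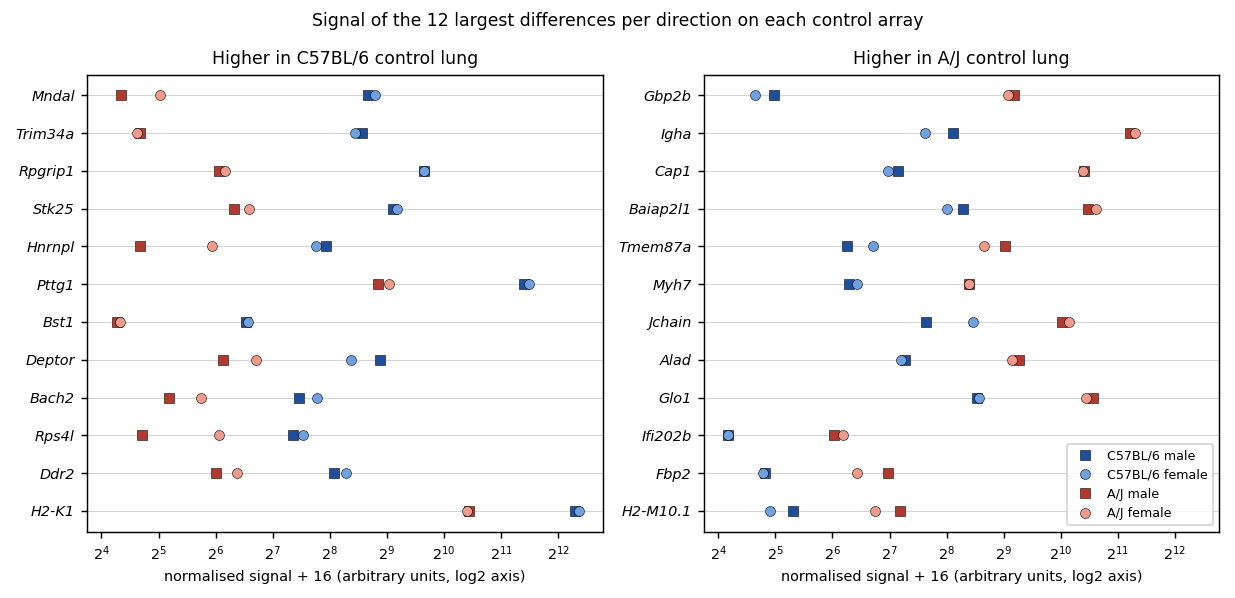
Normalised signal plus 16 (log2 axis, arbitrary units) of the 12 genes with the largest differences in each direction, with 1 point per control array; squares are male pools and circles female pools. The 24 genes were chosen among called genes whose arrays did not overlap, so the blue C57BL/6 points lie apart from the red A/J points by choice. Gbp2b was at 15.4 and 8.95 in C57BL/6 against 566 and 523 in A/J.

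Among the largest differences were genes near the bottom of the scale in one strain and bright in the other. Gbp2b, an interferon-induced GTPase of antimicrobial defence whose inducibility is known to vary between inbred strains, had signals of 15.4 (male) and 8.95 (female) in C57BL/6 and of 566 and 523 in A/J. The strains were far apart in both sexes, and the difference was -4.32 ± 0.24 (SE, 2 arrays per strain, adjusted p = 7.02e-09). The C3H/HeJ control arrays read 404 and 506, near A/J. Only 1 probe set of Gbp2b passed the filter on dim signals. Cap1, which recycles actin monomers, was read by 2 probe sets that gave the same picture. The brighter read 127 and 110.0 in C57BL/6 against 1341 and 1325 in A/J, a difference of -3.33 ± 0.20 (SE; adjusted p = 1.39e-08, 11.3-fold of the mean signals). The other read 39.5 and 42.1 against 565 and 517, a difference of -3.29 ± 0.24 (SE).

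Baiap2l1, which links membrane bending to actin, was also read by 2 probe sets and was higher in A/J in both, by -2.41 ± 0.14 and -2.67 ± 0.16 (SE). Its signals were 295 and 241 in C57BL/6, 1416 and 1555 in A/J, and 1565 and 1327 in C3H/HeJ. The C57BL/6 pools were thus the low ones among the 3 strains, and the same held for Tmem87a, a membrane protein of the secretory pathway, with 60.2 and 88.3 in C57BL/6 against 505 and 385 in A/J and 375 and 452 in C3H/HeJ. Alad, the second enzyme of haem synthesis, whose copy number varies between inbred strains, read 138 and 131 in C57BL/6 and 600 and 553 in A/J (difference -1.98 ± 0.19, adjusted p = 6.00e-06). Its neighbour Hdhd3 was also called higher in A/J, at 131 and 127 against 73.2 and 60.7. Fbp2, a muscle-type gluconeogenic enzyme, and H2-M10.1, a nonclassical class I gene, were dim in C57BL/6 (11.7 to 23.8) and brighter in A/J (69.9 to 129).

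In the other direction, Mndal, a member of the interferon-inducible p200 family of DNA sensors, read 393 and 427 in C57BL/6 against 4.36 and 16.6 in A/J. Its 2 probe sets differed by 4.05 ± 0.31 and 4.03 ± 0.24 (SE), and C3H/HeJ was again bright, at 251 and 236. Here A/J was the strain near the bottom of the scale. Rpgrip1, known as a protein of the photoreceptor cilium, read 786 and 784 in C57BL/6 and 50.5 and 55.5 in A/J (3.54 ± 0.18, adjusted p = 3.65e-09), and C3H/HeJ was as dim as A/J, at 35.3 and 44.5. Its 3 other probe sets lay under 33 on all 4 arrays and were not kept, so this difference rests on 1 probe set. Trim34a, an interferon-inducible ubiquitin ligase, read 362 and 331 against 9.63 and 8.79 (3.84 ± 0.35), while its other, dim probe set read 10.9 and 15.6 against 32.3 and 27.3.

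Stk25, a stress-activated kinase of the Golgi, was read by 1 kept probe set at 537 and 563 in C57BL/6, 64.2 and 79.5 in A/J and 694 and 695 in C3H/HeJ (2.69 ± 0.22, adjusted p = 6.04e-07). Pttg1, the securin that holds sister chromatids together, read 2676 and 2857 in C57BL/6 against 444 and 508 in A/J (2.50 ± 0.14), and its other kept probe set differed by 2.23 ± 0.24. The brighter Pttg1 probe set carries a suffix that marks probes shared between transcripts, so its reading of 1 gene is uncertain. Bst1, an NAD-consuming surface enzyme of myeloid and stromal cells, was near 0 in A/J (3.38 and 4.14) and at 76.0 and 79.1 in C57BL/6. Deptor, an inhibitor of mTOR, had signals of 453 and 316 against 53.8 and 88.3 by its brightest probe set (2.21 ± 0.35), and its other kept probe sets differed by 0.78 ± 0.22 and 1.09 ± 0.45 and were not called. The rest of the 12 were Hnrnpl, a splicing regulator (2.55 ± 0.59), Bach2, a repressor of lymphocytes (2.16 ± 0.41), Rps4l, a copy of a ribosomal protein gene (2.05 ± 0.38), Ddr2, a collagen receptor (1.99 ± 0.36), and H2-K1, described with its other probe sets below. Of the 24 genes with the largest differences, Bach2, Ddr2, Deptor, Hnrnpl, Rps4l, Fbp2 and H2-M10.1 were not called without the A/J male array, the same genes but Deptor were not called without the C57BL/6 female array, and Fbp2 and Hnrnpl were not called without the C57BL/6 male array. All 24 were called without the A/J female array.

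Of the listed genes for which an allele that alters the transcript or the protein is known in these or related strains, 7 were tested: 1 was called higher in C57BL/6, 3 higher in A/J, and 3 were not called. The share called was 57.1%, against 2.8% of all genes. The list was chosen with earlier results of these data known, so this share is a description and not separate evidence. Nnt, the mitochondrial transhydrogenase that makes NADPH, carries a deletion in the C57BL/6J substrain. Its signals were 180.5 and 175 in C57BL/6, 452 and 371 in A/J and 281 and 342 in C3H/HeJ. The difference was -1.13 ± 0.15 (SE, adjusted p = 3.00e-04), and a dimmer probe set differed by -0.94 ± 0.25 without being called. Nnt was not called on the deposited scaling. Glo1, the glyoxalase that clears methylglyoxal, lies in a copy gain known from A/J and several other strains. All 3 of its probe sets were higher in A/J, by -1.95 ± 0.13, -2.09 ± 0.21 and -1.64 ± 0.20 (SE). The brightest read 356 and 365 in C57BL/6, 1501 and 1374 in A/J and 941 and 757 in C3H/HeJ, which places C3H/HeJ between the others. The transcript next to it among the tested genes, 1700097N02Rik, was also called higher in A/J, at 95.8 and 109 against 51.3 and 49.8, although it lost the call without any 1 of the 4 control arrays.

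Ifi202b, a p200 gene known to be nearly silent in C57BL/6, read 2.05 and 1.93 there and 49.1 and 56.5 in A/J (-1.93 ± 0.25). Its probe set carries the suffix of shared probes. Hc encodes complement C5, whose A/J allele carries a frameshift that removes the protein. It read 1634 and 1944 in C57BL/6 against 559 and 557 in A/J and 1309 and 1459 in C3H/HeJ (1.65 ± 0.34, adjusted p = 0.0140), by 1 kept probe set, and was not called without any 1 of the 4 control arrays or with the Gapdh ratio as a covariate. Apobec3, a restriction factor of retroviruses, differed by 0.93 ± 0.33 (adjusted p = 0.151), and Dysf, a membrane repair protein that is disrupted in A/J, by 0.74 ± 0.34 (adjusted p = 0.303). Neither was called. Naip5, the sensor of Legionella flagellin, differed by 0.13 ± 0.23.

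Genes were then read through pairs of probe sets, which 3207 genes allowed. Of the 254 called genes, 111 had several kept probe sets. All others had the same sign in 86 of these, at least 1 other was itself called in the same direction in 27, none was in 84, and another was called the opposite way in 2. When every probe set with 1 gene symbol was tested in its own right, 418 of 13861 were called (3.02%), 256 of them higher in C57BL/6 and 162 higher in A/J. Both the brightest and the second brightest probe set were called in the same direction for 21 genes, 10 higher in C57BL/6 and 11 higher in A/J. Besides Cap1, Baiap2l1, Glo1, Mndal and Pttg1, these included Igha (-3.38 and -2.78), Ankrd1, a stress-responsive titin-binding protein (-1.05 and -1.49), Itga6, a laminin receptor subunit (1.15 and 1.59), Gclc (1.57 and 0.91), Cxcl14 (1.13 and 1.88), Klf4 (0.87 and 0.77) and Lyve1 (1.11 and 2.08).

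The difference between the 2 probe sets was itself tested within each array, and 39 of 3207 genes were called (1.22%). In 33 of them 1 probe set was called and the other was not, and in those the called probe set was higher in C57BL/6 for 30 genes and higher in A/J for 3. In 3 neither was called, in 2 (Slc25a51 and Galnt1) both were called in opposite directions, and in Lyve1 both were called the same way with unequal size. Among pairs whose difference was not called, a probe set called alone also leaned to C57BL/6. The brightest alone was higher in C57BL/6 for 43 genes and in A/J for 29, and the second alone for 47 and 16. All these splits are those of the quantile normalized values. The mouse reference genome is that of C57BL/6J, and whether strain variants lie under the probes of the 39 called genes was not tested. The number of these calls moved with the fit: it was 9 with the 4 control arrays alone, 13 with the Gapdh ratio as a covariate, and 6 to 11 without 1 control array.

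**Figure D2:**
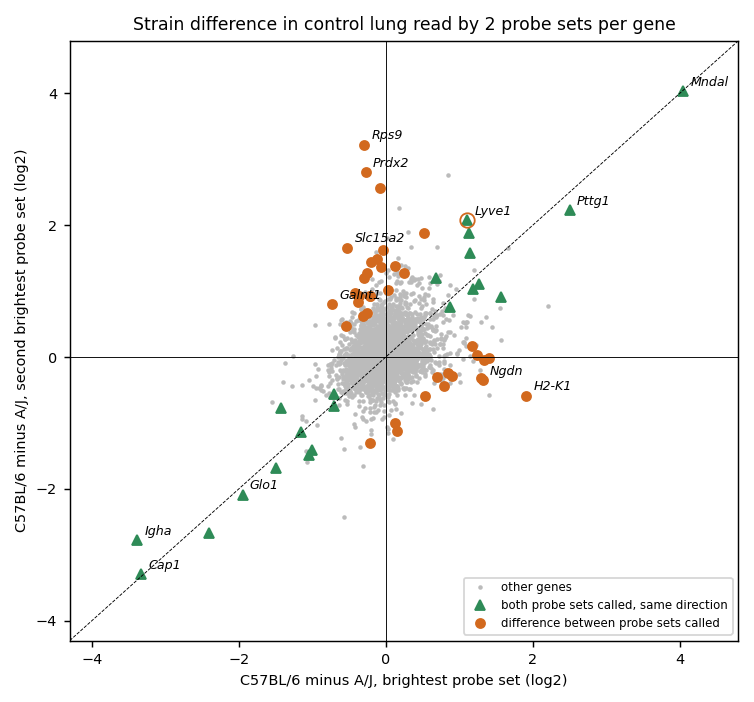
Strain difference in control lung (C57BL/6 minus A/J, log2) of the brightest probe set of a gene (x axis) against its second brightest (y axis), 1 point per gene for 3207 genes; the dashed line marks equal differences. Genes with both probe sets called the same way (green) follow the line from Igha and Cap1 to Mndal, whereas Rps9 and Prdx2 stand near 0 on 1 axis and at 3.23 and 2.80 on the other; the ringed point is Lyve1, called in both tests.

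Rps9, a ribosomal protein, showed the smallest p. Its brightest probe set read 1833 and 1798 in C57BL/6 and 2297 and 2152 in A/J, a difference of -0.29 ± 0.10 (SE). Its second read 763 and 644 in C57BL/6 and 70.9 and 51.6 in A/J, a difference of 3.23 ± 0.28, and C3H/HeJ was as dim as A/J by it, at 83.0 and 62.3. The probe sets thus differed by -3.51 ± 0.28 (adjusted p = 5.58e-06), and both carry suffixes of probes shared with other transcripts. Prdx2, a peroxide-reducing enzyme of red cells and other tissues, had 677 and 603 against 816 and 739 by its brighter probe set and 300.0 and 290.2 against 29.3 and 27.7 by the other. Here too C3H/HeJ sat with A/J, at 21.5 and 28.8.

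Slc15a2, a peptide transporter of airway and alveolar epithelium, was lower in C57BL/6 by its brighter probe set (-0.52 ± 0.18, not called) and higher by the other (1.66 ± 0.21). Mrpl41, a mitochondrial ribosomal protein, differed by -0.20 ± 0.17 and 1.45 ± 0.25, and Ngdn, a ribosome assembly factor, by 1.32 ± 0.23 and -0.35 ± 0.19. For Cd99, a leukocyte migration protein, 3 probe sets gave 0.80, 0.19 and -0.43. Slc25a51, the mitochondrial NAD carrier, gave 0.54 ± 0.14 and -0.60 ± 0.14, and Galnt1, which starts O-linked glycans, gave -0.73 ± 0.16 and 0.80 ± 0.19. For these genes the array did not give 1 strain difference, and a statement on the gene depends on which probe set is read.

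H2-K1, a classical class I molecule that presents peptides to CD8 T cells, belongs to the major histocompatibility complex, whose haplotypes differ between C57BL/6, A/J and C3H/HeJ. Its brightest probe set read 5002 and 5265 in C57BL/6, 1364 and 1338 in A/J and 994 and 1128 in C3H/HeJ (1.91 ± 0.20, adjusted p = 2.07e-05). Another read 277 and 324 against 81.0 and 89.5 (1.64 ± 0.20). The other kept probe sets gave -0.59 ± 0.44 and -0.30 ± 0.22 and were not called, and by the last of these C3H/HeJ stood at 117 and 145 against 2356 to 3011 in the other strains. All 4 probe sets carry the suffix of probes that can bind related genes. Over the class I and peptide loading list, 14 members were tested, 1 was called higher in C57BL/6 (H2-K1) and 1 higher in A/J (H2-M3, -0.80 ± 0.16), and the median was -0.04; H2-M3 lost the call without any 1 of the 4 control arrays. Of the 14 class I members 14.3% were called, against 2.8% of all genes, a description, as this list too was chosen with earlier results known. None of 13 class II presentation genes was called by limma (1 at an unadjusted p under 0.05), with a median of -0.10. Of these H2-Oa had a difference of -0.36 ± 0.28.

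The calls were set against the 3 week arrays, which share no sample with the controls. Both comparisons came from 1 fit, however, and share its estimate of the spread of each gene. A call at 3 weeks is therefore not independent of a call in controls. At 3 weeks, 1471 of 9079 genes were called between the strains (16.2%), at doses that overlapped but were not the same. That count was 809 with only the A/J arrays at the C57BL/6 doses, 442 without the C57BL/6 male 3 week array and 898 without the female one. Of the 254 control calls, 226 kept their sign at 3 weeks (117 higher in C57BL/6 and 109 higher in A/J), 144 were called again in the same direction (79 and 65), and 6 were called in the opposite direction. The share of all genes that kept their sign was not counted. Among the 111 that differed by more than 2-fold, 75 were called again. The median size of the 254 differences was 0.92 in controls and 0.62 in the same direction at 3 weeks. The genes were picked by their control difference, so a smaller size in other arrays follows in part from the choice. Rpgrip1 differed by 3.89, Mndal by 4.31, Cap1 by -2.91, Gbp2b by -3.45, Baiap2l1 by -2.62, Stk25 by 2.53, Glo1 by -1.87, Alad by -2.03 and Nnt by -1.29 in the bleomycin lungs, each called there, and for none of them was the change in the difference called. Others of the 12 largest control differences per direction were not called at 3 weeks. These were H2-M10.1 (-1.86 in controls and -0.26 at 3 weeks), Deptor (2.21 and 0.83), Ddr2 (1.99 and 0.75), Bach2 (2.16 and 0.96) and Hnrnpl (2.55 and 1.39).

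The change in the strain difference between controls and 3 weeks was called for 142 of 9079 genes (1.56%) and for 17 of the 254. The 254 were picked by the control difference, which this change subtracts, so their share cannot be compared with that of all genes. Pttg1 went from 2.50 to 1.17 (adjusted p of the change 0.00210), and Gpnmb, a glycoprotein of lipid-laden macrophages, from -0.94 to 0.74 (adjusted p = 0.00223). Hc differed by 1.65 in controls and by 0.23 at 3 weeks, a change that was not called (adjusted p = 0.139). For the probe set pairs, 131 of 3207 were called at 3 weeks (4.08%), and of the 39 called in controls 38 kept their sign and 21 were called again. The share of all pairs that kept their sign was not counted. Rps9 had a probe set difference of -3.51 in controls and of -3.33 at 3 weeks, and Prdx2 of -3.08 and -2.81.

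**Figure D3:**
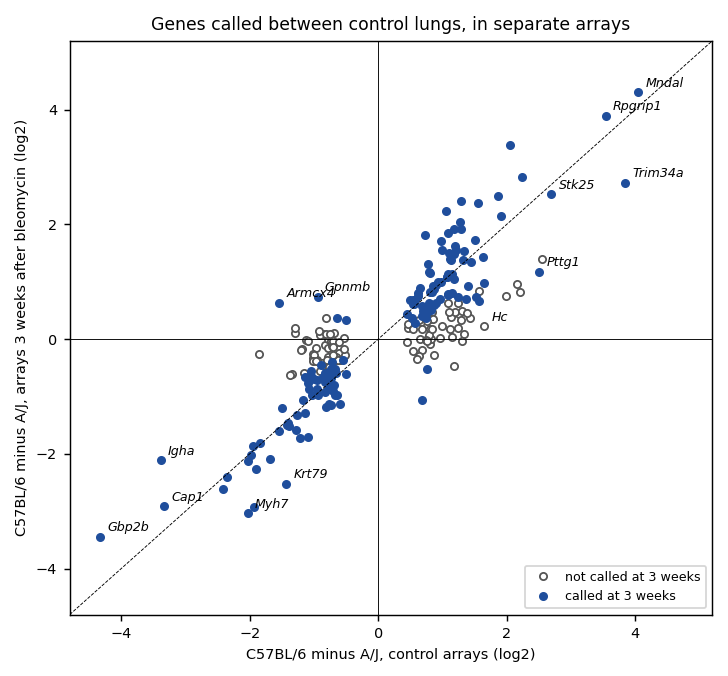
Strain difference (C57BL/6 minus A/J, log2) of the 254 genes called between control lungs (x axis) against the difference of the same genes on the arrays 3 weeks after bleomycin (y axis); filled points were called at 3 weeks and the dashed line marks equal differences. Rpgrip1, Mndal, Stk25 and Cap1 lie within 0.5 of the line, Igha (-3.38 and -2.11), Trim34a (3.84 and 2.73) and Pttg1 (2.50 and 1.17) lie more than 1 from it, and Armcx4 and Gpnmb lie on the other side of 0 at 3 weeks.

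By the C3H/HeJ control arrays, 69 of the 254 genes had a C3H/HeJ mean nearer C57BL/6 and 185 nearer A/J. That is 27.2% nearer C57BL/6, against 40.7% of all 9079 genes. Among the genes higher in C57BL/6 the split was 54 to 77, and among those higher in A/J 15 to 108. So for most genes higher in A/J, such as Cap1, Baiap2l1, Alad, Tmem87a and Gbp2b, C57BL/6 was the strain that stood apart. Trim34a, Rpgrip1, Pttg1, Gclc and Parp3, which attaches ADP-ribose at DNA breaks, were high in C57BL/6 with both A/J and C3H/HeJ low, whereas Mndal, Stk25 and Bst1 were low only in A/J among the 3 strains, as a description of 2 arrays each. Parp3 was read here by its brightest probe set (1.17). Its second probe set differed by 0.18 and was not called, and Parp3 was among the 39 genes whose probe sets disagreed.

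Neighbours were read from the order of the tested genes along the chromosomes (RefSeq, GRCm38.p6). Of 497 tested neighbours of called genes, 35 were called (7.04%, against 2.79% of 9063 placed genes), in 17 runs, 12 of them in 1 direction. The longest had 3 genes of the p200 cluster: Ifi209 (1.29 ± 0.22) and Mndal were higher in C57BL/6 and Ifi202b higher in A/J. A second Ifi209 probe set differed by -0.31 ± 0.26, and the p200 genes are near-identical in part, so their signals may mix. Other pairs were Glo1 with 1700097N02Rik, Igha with Ighg3, Hdhd3 with Alad, the ribonucleases Ang and Rnase4 (1.43 and 0.76), Col3a1 with Col5a2, and Myh7 with Ngdn, which went in opposite directions by the brightest Ngdn probe set. The second Ngdn probe set had the sign of Myh7 and was not called (-0.35 ± 0.19), so this pair depends on the probe set read.

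Genes were next grouped by cell type and function. In bulk lung, fewer cells of a type and less RNA per cell cannot be told apart. The lists and their members were chosen with earlier results of these data known. The shares called in them, here and below, are therefore descriptions and not separate evidence. The largest differences in a cell type list were in antibody genes. Igha, the heavy chain of the mucosal antibody IgA, read 262 and 180.1 in C57BL/6, 2346 and 2495 in A/J, and 1796 and 1313 in C3H/HeJ (-3.38 ± 0.26, adjusted p = 3.80e-07), and its 3 probe sets differed by -2.78 to -3.78. Jchain, which joins IgA into dimers, read 183 and 336 in C57BL/6 against 1018 and 1110 in A/J (-2.03 ± 0.23). The light chain genes Igkv9-120 (-1.55 ± 0.23), Igkv8-30 and Igkv6-14 and the heavy chain Ighg3 (-1.01 ± 0.20), all outside the list, were called in the same direction. They are named because they were called, and the antibody genes tested without a call were not counted, so they are not separate evidence. Several of the antibody probe sets carry suffixes of shared probes, and the heavy chain alleles of the strains differ in sequence.

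Of the 18 tested B and plasma cell markers, 17 had a negative sign, and the median was -0.44, against -0.07 for all genes. Called were 2 (Igha and Jchain, both higher in A/J), or 11.1% against 2.8% of all genes. The summed signal of the list was 5532 and 6772 in C57BL/6 against 10300 and 10340 in A/J. Genes of the B cell itself were not called: Cd22, a receptor that damps B cell signalling, differed by -0.81 ± 0.23 (adjusted p = 0.0777), Cd79a and Cd79b by -0.23 and -0.29, and Ms4a1, which encodes CD20, by 0.14. Of 21 T and NK cell markers limma called none (4 at an unadjusted p under 0.05), and the median was -0.09; Gzma, a granzyme of killer cells, was at 333 and 322 against 145 and 153 without being called (1.06 ± 0.36, adjusted p = 0.135). Mast cell and eosinophil markers, 5 tested, all had a negative sign with a median of -0.35 and no call by limma (1 at an unadjusted p under 0.05).

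Macrophage markers did not move as 1 group. Chil3, a chitinase-like protein secreted by alveolar macrophages, read 2202 and 2346 in C57BL/6 against 614 and 843 in A/J (1.64 ± 0.20, adjusted p = 1.48e-04), whereas Krt79, a keratin expressed by alveolar macrophages, read 220.1 and 252 against 687 and 642 (-1.44 ± 0.23, adjusted p = 0.00285). Marco, a scavenger receptor (-1.22 ± 0.24), Gpnmb (-0.94 ± 0.19) and Cd68, a lysosomal marker (-0.81 ± 0.16), were higher in A/J as well. In all, 1 of 37 was called higher in C57BL/6 and 4 higher in A/J (13.5% called, against 2.8% of all genes), with a median of -0.15, and the summed signals overlapped, at 33220 and 33030 against 32940 and 33420. On the deposited scaling the median became 0.04 and 1 gene was called in each direction. The calls higher in A/J became 1 without the A/J male or the A/J female array and 2 without either C57BL/6 array, with Krt79 called in each of these fits and Cd68 in none. Of 12 neutrophil markers Lcn2, an iron-binding defence protein, was called higher in C57BL/6 (0.66 ± 0.13), with a list median of 0.03. The share called was 8.33%, against 2.8% of all genes. Lcn2 was not called without the A/J male array or either C57BL/6 array.

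**Figure D4:**
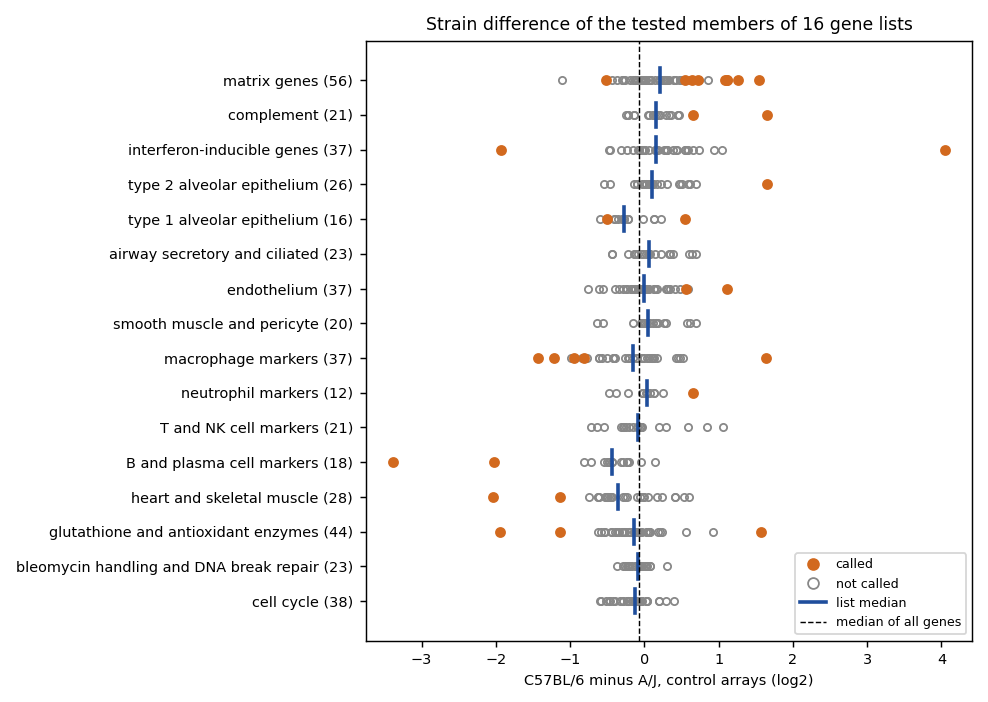
Strain difference (C57BL/6 minus A/J, log2) of each tested gene in 16 gene lists, with the number tested in parentheses; filled points were called, the blue bar is the list median and the dashed line the median of all genes at -0.07. The list medians lie within 0.44 of 0, with B and plasma cell markers lowest and matrix genes highest at 0.21.

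Of 56 structural matrix genes tested, 8 were called higher in C57BL/6 and 1 higher in A/J (16.1% called, against 2.8% of all genes), with a median of 0.21. Col3a1, a fibrillar collagen of vessel and alveolar walls, read 2152 and 2997 in C57BL/6 against 1281 and 1062 in A/J (1.11 ± 0.18, adjusted p = 0.00273), and its second probe set differed by 0.54 ± 0.21 without being called. Col1a1 read 671 and 743 against 301 and 348 (1.09 ± 0.23), and Col1a2, its partner in type I collagen, 1844 and 1889 against 1236 and 1137 (0.65 ± 0.11). The strains did not overlap for either gene, as was so for all 254 called genes and for 54% of all genes. Dcn, a proteoglycan that binds collagen and TGF-beta, was at 1254 and 1116 against 557 and 421 (1.26 ± 0.21). Thbs1, a glycoprotein that activates latent TGF-beta, was at 535 and 347 against 146 and 128 (1.55 ± 0.27).

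Col4a1 of basement membrane (0.55 ± 0.12), Col5a2 (0.72 ± 0.18) and the microfibril protein Mfap5 (1.12 ± 0.25) were also called higher in C57BL/6. Fbln5, which assembles elastic fibres, was the 1 called higher in A/J (-0.51 ± 0.11). The matrix median was 0.45 on the deposited scaling and 0.12 after median scaling, each above the all-gene median, by 0.26 in both, but the calls were not stable: 5 were higher in C57BL/6 on the deposited scaling, 3 after median scaling, 4 with the Gapdh ratio as a covariate, and 1 to 4 without 1 control array, the fewest without the A/J female array. Of the matrix proteases, 2 of 30 were called, both higher in C57BL/6: Mmp3, or stromelysin (0.98 ± 0.24), and Adamts1, which cuts versican (0.79 ± 0.14). That is 6.67% against 2.8% of all genes. Without the A/J male or the C57BL/6 female array, on the deposited scaling, and with the Gapdh ratio, 1 was called, and without the A/J female or the C57BL/6 male array 0 were. C3H/HeJ was nearer A/J for Col1a1 (350 and 364), Col1a2 (1223 and 1410), Col3a1 (1495 and 1560) and Dcn (503 and 442).

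Among 26 type 2 alveolar genes the 1 called was Hc (3.85%, against 2.8% of all genes), with a list median of 0.10, which became -0.03 after median scaling. Of 16 type 1 genes, the water channel Aqp5 was higher in A/J (1839 and 1892 against 1386 and 1231, -0.51 ± 0.10) and Limch1, an actin regulator, higher in C57BL/6 (0.54 ± 0.11). Of the 16, 12.5% were called (2.8% of all genes), 12 had a negative sign and 7 an unadjusted p under 0.05, and the median was -0.28, or -0.05 on the deposited scaling. Aqp5 lost the call without the A/J female array or either C57BL/6 array, and Limch1 without any 1 of the 4. None of 23 airway genes was called by limma (6 at an unadjusted p under 0.05); Bpifa1, a secreted protein of the upper airway, came nearest (0.69 ± 0.19, adjusted p = 0.0638). Scgb1a1 and Sftpc lay at the top of the scale, where normalization limits what can be seen. Of 37 endothelial genes, 2 were called higher in C57BL/6 (5.41%, against 2.8% of all genes): Vwf, the clotting factor carrier (0.56 ± 0.12), and Lyve1, of lymphatic endothelium. Lyve1 read 956 and 848 in C57BL/6 against 406 and 410.1 in A/J and lost the call without the C57BL/6 male array; Vwf lost it without any 1 of the 4 control arrays.

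Striated muscle transcripts, which come with the muscle sleeve of the pulmonary veins or with neighbouring tissue, were called higher in A/J for 2 of 28 genes (7.14%, against 2.8% of all genes). Myh7, a slow myosin heavy chain, read 62.8 and 69.8 in C57BL/6 against 321 and 319 in A/J (-2.03 ± 0.24, adjusted p = 7.53e-05), and Cox7a1, a muscle form of a cytochrome oxidase subunit, 38.9 and 63.6 against 140.2 and 120 (-1.14 ± 0.25). Cox7a1 was called without the C57BL/6 female array but not without any other 1. The list's median was -0.36, but 7 of 28 had a positive sign, among them cardiac actin, Actc1, at 1275 and 1287 against 977 and 715 (0.61 ± 0.23, not called). The summed signals were 9694 and 10500 in C57BL/6 against 12990 and 10870 in A/J. The part of muscle tissue in the Myh7 difference was not tested. Limma called none of 13 adipocyte, 8 red cell or 20 smooth muscle and pericyte genes, of which 2, 1 and 4 had an unadjusted p under 0.05.

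Gclc, the catalytic subunit of the enzyme that limits glutathione synthesis, read 1146 and 1239 in C57BL/6 against 353 and 436 in A/J (1.57 ± 0.23, adjusted p = 0.00119) and 374 and 338 in C3H/HeJ, and its second probe set differed by 0.91 ± 0.14. With Glo1 and Nnt higher in A/J, 3 of 44 glutathione and antioxidant genes were called (6.82%, against 2.8% of all genes), around a median of -0.14, and these 3 were called without any 1 of the control arrays. Adh7, an alcohol dehydrogenase that oxidizes retinol, was at 204 and 199 against 81.2 and 60.5 (1.34 ± 0.31), and Aldh2, the mitochondrial aldehyde dehydrogenase, at 2491 and 2263 against 1047 and 1590 (0.87 ± 0.19). With these, 2 of 36 oxidizing and ester-cleaving enzymes were called (5.56%, against 2.8% of all genes), around a median of -0.07. Aldh2 was called without the A/J female array, and neither was called without any other 1 of the control arrays. The other kept Aldh2 probe sets, both dimmer, had the opposite sign (-0.70 ± 0.37 and -0.39 ± 0.46). None of 23 genes of bleomycin handling and DNA break repair was called by limma (0 at an unadjusted p under 0.05), with a median of -0.08; Blmh, the hydrolase that inactivates bleomycin, named here for that role and outside the naming rule, differed by -0.12 ± 0.18 with overlapping arrays.

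Among 37 interferon-inducible genes, 1 was called in each direction, Mndal and Ifi202b (5.41%, against 2.8% of all genes), around a median of 0.16. Gbp2, a relative of Gbp2b, went the other way, at 512 and 503 against 315 and 317 (0.66 ± 0.19, adjusted p = 0.0729, not called). Of 21 complement genes Hc and C6, a component of the membrane attack complex (0.65 ± 0.17), were called higher in C57BL/6 (9.52%, against 2.8% of all genes), and 16 had a positive sign, with a median of 0.16. Neither was called without any 1 of the 4 control arrays or with the Gapdh ratio as a covariate, and C6 was called in 10 of 21 alternative settings. Of 25 chemokines and cytokines 8% were called, against 2.8% of all genes. Cxcl14, a chemokine of epithelium and stroma, was higher in C57BL/6 (420 and 407 against 163 and 198). Cxcl12, a ligand that retains leukocytes, was higher in A/J (794 and 656 against 1241 and 1190, -0.74 ± 0.12). A second Cxcl12 probe set differed by -0.11 ± 0.16. Cxcl14 lost the call without any 1 of the 4 control arrays, and Cxcl12 without the C57BL/6 female array. Of 31 immediate early and heat shock genes, Klf4, a transcription factor of vessel and epithelium, was called (0.87 ± 0.19) but not without any 1 of the control arrays. The share called was 3.23%, near the 2.8% of all genes. None of 38 cell cycle genes was called by limma (3 at an unadjusted p under 0.05), with a median of -0.13.

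The circadian clock genes, which follow time of day, set the C57BL/6 female array apart. Dbp, a clock output factor, read 904 on the C57BL/6 male array, 169 on the female array, and 832 and 881 in A/J. Nr1d1, a repressor in the clock loop, read 432 and 115 in C57BL/6 and 425 and 476 in A/J, and Tef 1762 and 828 against 1815 and 1969. Arntl, whose peak opposes theirs, was at 34.7 and 178 against 37.5 and 60.7. By these brightest probe sets the C57BL/6 female array was thus low for the first 3 and high for Arntl, and the other 3 arrays lay close together. The other kept Tef probe sets did not show this. One read 302 (male) and 29.4 (female) in C57BL/6 against 47.4 and 206 in A/J, and another 115 and 111 against 147 and 150. None of the 15 clock genes was called between the strains by limma (5 at an unadjusted p under 0.05); the median was -0.35, but -0.08 between the male arrays and -0.89 between the female arrays. Cry1, which read 20.2 and 19.7 in C57BL/6 against 71.4 and 75.0 in A/J (-1.31 ± 0.37, adjusted p = 0.0702), had both C57BL/6 arrays low. The labels do not state the hour of tissue collection. Without the C57BL/6 female array, 70 genes were called between the strains.

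**Figure D5:**
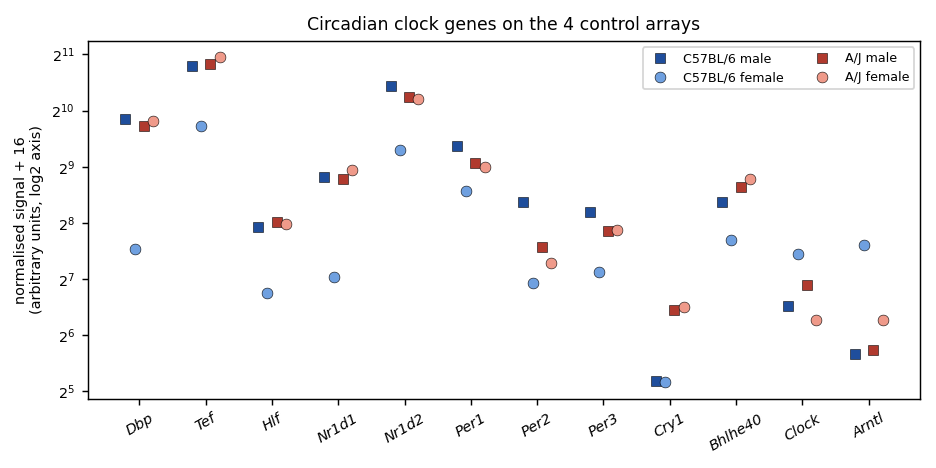
Normalised signal plus 16 (log2 axis, arbitrary units) of 12 circadian clock genes on the 4 control arrays; squares are male pools and circles female pools. Each gene is shown by its brightest probe set. For Dbp, Tef, Hlf, Nr1d1 and Nr1d2 the C57BL/6 female array lies below the other 3, with Dbp at 169 against 832 to 904, and for Arntl it lies above them at 178 against 34.7 to 60.7.

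The genes that held under nearly all settings give a short list. Under every fit other than the one limited to probe sets without a suffix, 25 genes were called, 11 higher in C57BL/6 and 14 higher in A/J. Higher in C57BL/6 were Mndal, Rpgrip1, Stk25, Pttg1, Ms4a4d, a membrane protein of the CD20 family (1.65), Chil3, Gclc, Cygb, a globin of fibroblast-like cells (1.52), Rps6, a ribosomal protein (1.28), Cd200, a ligand that restrains macrophages (1.19), and Parp3 (1.17). Higher in A/J were Gbp2b, Igha, Cap1, Baiap2l1, Tmem87a, Myh7, Jchain, Alad, Glo1, Igkv9-120, Armcx4 (-1.54), Clba1 (-1.49), Krt79 and Wdfy1 (-1.42). Of these Armcx4 had the opposite sign at 3 weeks, where it was called higher in C57BL/6 (0.64, adjusted p = 0.00425). Parp3 held by its brightest probe set only: its second differed by 0.18, was not called, and the difference between the 2 was itself called. No collagen gene was on this list.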

How the data were processed

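Total RNA of pooled lungs was hybridized to Affymetrix mouse arrays of 22690 probe sets by standard procedures, per the labels' protocols. The authors deposited 1 table of intensity values on a linear scale, with array medians that differ; how probes were summarized, corrected for background and scaled is not stated in the labels or the table. All 21 columns matched a sample by title. The 64 control probe sets were left out. Of the other 22626, 20380 had exactly 1 gene symbol, 691 several and 1555 none; 20352 were brought to current symbols through RefSeq (GRCm38.p6).

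Intensities were quantile normalized and turned into log2(value + 16), as the deposited medians differed. A filter on dim signals removed the lowest 33.3% of probe sets by mean; 15084 passed, 1223 of them without exactly 1 symbol, and the brightest probe set stood for a gene (9079 genes). The model, fitted to 21 arrays with limma 3.58.1 (R 4.3.3), had a coefficient for each of 10 groups of strain and stage and another for sex (lmFit, contrasts.fit, eBayes with trend; 10 residual degrees of freedom, 16.9 after shrinkage). All groups entered so that they share 1 estimate of the spread. Tests were two-sided, with Benjamini-Hochberg adjustment over all genes of a comparison and a threshold of 0.05. Differences between probe sets were tested by the same model on the log2 difference of a gene's brightest and second brightest kept probe set. The scripts were tested on simulated data. No 2 arrays held identical values. The number of arrays limits the precision.

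Named genes were the 12 largest called differences in each direction, among genes whose control arrays did not overlap between the strains. All tested members of the list of known strain alleles and of a sex-linked check (Xist, Uty and Kdm6a) were named as well. Also named were up to 3 members of each other of 28 gene lists by p and the 8 smallest p of the probe set test. Genes called both ways and genes of the 4 longest runs of neighbours were named too. Called list members and genes called under nearly all settings were added. The members and lists were chosen with earlier results of these data known. Alternatives were other scalings, offsets, filters, sets of arrays, probe set rules and covariates, and leaving out each array.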

Additional observations from a re-analysis of the deposited data

Results flagged for a closer look

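The strain difference changed between controls and 3 weeks after bleomycin for 10 of the named genes, by the test of the change itself over all genes (limma, adjusted p under 0.05). The change, as C57BL/6 minus A/J at 3 weeks less the same in controls on the log2 scale, was 2.08 for C1qc, a chain of complement C1q made by macrophages, 1.25 for Ctss, a lysosomal protease of antigen-presenting cells, 1.69 for Gpnmb and 1.36 for Rgs5, a pericyte gene. It was -1.85 for Cyp1a1, an oxidase induced by aryl hydrocarbons, -1.15 for Aldh2, -1.15 for Fmo1, a flavin-containing oxidase of drugs, -1.73 for Hbb-b2, an adult haemoglobin chain, -0.75 for Limch1 and -1.33 for Pttg1. Of these 10, Aldh2, Gpnmb, Limch1 and Pttg1 were called between the control lungs. Most named genes were picked by their p or difference in controls, which enters this change, so the count of 10 cannot be compared with all genes.

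In the 4 A/J arrays at 3 weeks, 11 of 111 named genes had an array far from the other 3; chance flags about 1 in 20 groups of this size. The female array at 125 mg/kg was the highest for Adamts1 (signal 304.1), C1qc (559.1) and Col3a1 (2349.8), and the lowest for Alad (461.3) and Fbp2 (77.4). The male array at 80 mg/kg was the highest for Slc15a2 (434.0) and the lowest for Car2, a carbonic anhydrase (693.8), and Vwf (812.0). The male array at 100 mg/kg was the highest for Ifi202b (182.1) and the lowest for Cox7a1 (42.6). The female array at 100 mg/kg was the lowest for Ccl6, a macrophage chemokine (2548.4). The control groups have 2 arrays each and were not examined in this way.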

How the results depend on the processing

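No paired analysis was possible because the labels number no replicates and every pool came from its own mice. The 254 calls between control lungs became 132 on the deposited scaling (95 of the 254 among them), 106 with the Gapdh ratio as a covariate (101), 445 at an adjusted p under 0.10, 518 with the 6 control arrays alone (240), 727 with the 4 alone (251), 758 with array weights, and 65 to 92 without 1 control array, where the lone array of a strain is assumed to vary like the other groups. The 39 probe set calls became 59 on the deposited scaling and with an offset of 64, 93 at an adjusted p under 0.10, 116 with array weights, 24 and 9 with the 6 and the 4 control arrays, 22 against the dimmest probe set, 13 with the Gapdh ratio, and 6 to 11 without 1 control array. The 1471 calls at 3 weeks became 809 with A/J arrays at the C57BL/6 doses and 442 to 1503 without 1 array of that time.

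Signs turned when probe sets were averaged for Aldh2 (-0.072), Galnt1 (0.037), Mrpl41 (0.62), Prdx2 (1.27), Rps9 (1.47), Slc15a2 (0.57), Slc25a51 (-0.030) and Xist (0.40), which follows from probe sets that disagree; on the deposited scaling for H2ax (0.024), Mrpl41 (0.033) and Xist (0.11); and with unsuffixed probe sets for Kdm6a (-0.057), Ngdn (-0.35) and Xist (0.96). Without 1 control array, Naip5 ran from -0.083 to 0.35, Slc4a1 from -0.18 to 1.39, Xist from -0.75 to 0.43 and Xrcc1 from -0.79 to 0.036. The causes of the other changes were not tested. The array median and Gapdh covariates, the fit without the C3H/HeJ female 6 week array and the settings for 3 weeks were chosen after seeing the data. Signals under about 43, the limit of the filter on dim probe sets, carry no order.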

Other observations

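Among the genes whose probe sets disagreed, the 3 with the called probe set higher in A/J were Elf5, an epithelial transcription factor (0.13 by the brightest and -1.01 by the second brightest probe set), Ackr2, a scavenger of chemokines (-0.21 and -1.30), and Dusp7, a phosphatase of ERK kinases (0.15 and -1.11). They were chosen after their values were seen. Desmoplakin, Dsp, the anchor of keratin at desmosomes, differed by -0.21 and 0.92, and the growth-arrest RNA Gas5 by -0.07 and 1.36. At 3 weeks the probe set differences of Dsp and Gas5 were called again, at -1.15 and -1.30 (brightest minus second brightest, log2).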
